A study of Mus musculus with 6 samples.

Results

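The 10 genes described here make pulmonary surfactant and the lamellar bodies that store it. They are Sftpc, Sftpb, Sftpa1, Sftpd, Abca3, Lamp3, Napsa, Slc34a2, Lpcat1 and Etv5, chosen by name as alveolar type 2 genes of surfactant protein and lamellar body function and taken by symbol from 40842 named genes. They were measured by polyA RNA sequencing of whole lung from wild-type female C57BL/6N mice. The irradiated group had 3 libraries (irradiated 1 to 3) from mice given 20 Gy of 9 MeV electrons in 1 dose and labelled 100 days, and the control group had 3 libraries (control 1 to 3) from untreated mice with the same label of 100 days. Neither the exposed body part nor the age of the mice is in the labels. Nor do they say whether the libraries of a group came from separate animals, so a p-value here compares libraries, whose spread may be technical alone.

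Surfactant is a film of phospholipid and protein that lowers surface tension at the air-liquid interface of the alveolus. Alveolar type 2 cells (AT2 cells) make it, pack it into lamellar bodies, which are organelles related to lysosomes, and release it by exocytosis. The small hydrophobic proteins SP-B and SP-C work within the lipid film, whereas the collectins SP-A and SP-D bind microbes and take part in innate defence. SP-C is a product of AT2 cells, while club cells of the airway also express the genes of SP-A, SP-B and SP-D.

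Levels are FPKM as the authors deposited them, a unit that allows for the length of the transcript and the depth of the library. A log2 change is the mean log2(FPKM + 1) of irradiated libraries less that of control libraries, with limma's standard error. Adjusted p-values are limma's with Benjamini-Hochberg adjustment over the 13908 genes whose mean over the 6 libraries reached 1 FPKM, and an adjusted p under 0.05 counts as a call. The values of coverage imply between 5.11 and 10.4 Gb of aligned sequence per library, with irradiated 2 the deepest, and summed FPKM over named genes was 298352 to 312652 in irradiated libraries and 321039 to 350820 in control libraries. In RNA from whole tissue, fewer AT2 cells and less RNA per AT2 cell cannot be told apart.

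All 10 genes passed the filter on low values, and limma called none of them, against 0.18% of all tested genes (0.0647% higher and 0.115% lower). Before adjustment 6 of the 10 had a p under 0.05, all lower and none higher, against 10.3% of all tested genes lower, 7.41% higher and 17.7% in either direction. The log2 change was negative for 9 of the 10 and for 55.8% of all tested genes. In 7 of the 10 every irradiated library lay below every control library, which 14.6% of all tested genes also showed. In none did every irradiated library lie above every control, against 9.91% of all. These 7 were Sftpc, Sftpb, Lamp3, Napsa, Slc34a2, Lpcat1 and Etv5, and 5 of them remained after each library was scaled to the same summed FPKM, without Slc34a2 and Lpcat1. On that scale 6.52% of all tested genes lay lower in every irradiated library. The median log2 change of the 10 genes was −0.33, and that of all tested genes was −0.03.

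**Figure D1:**
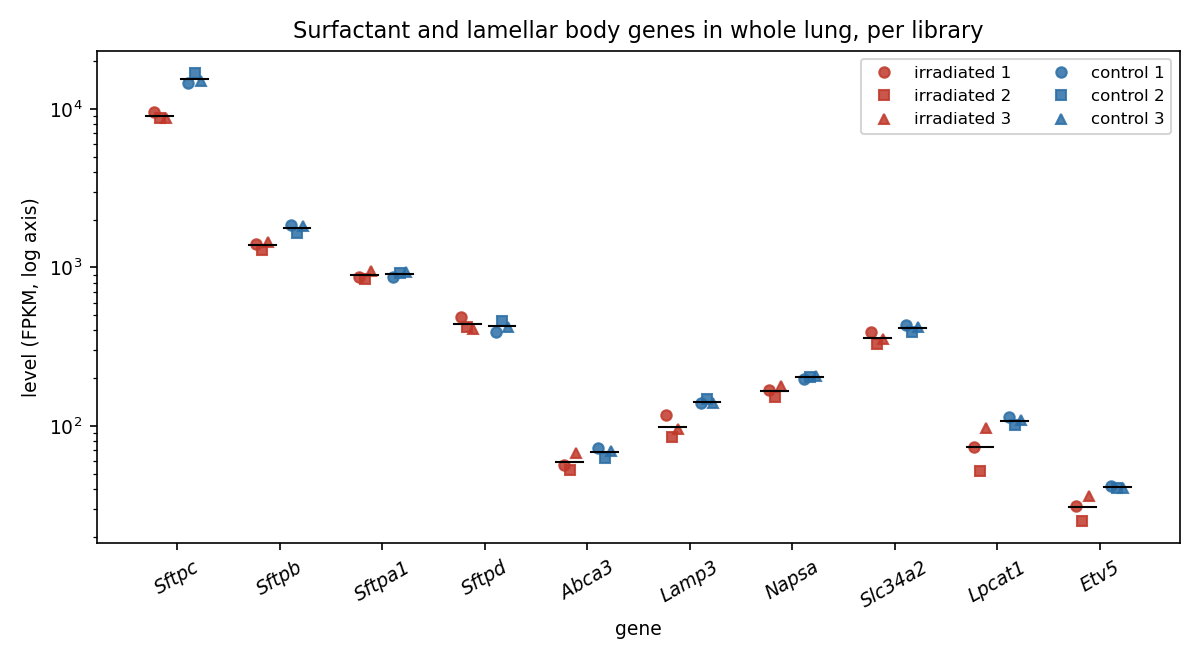
Level of each of the 10 genes in FPKM on a log axis in 3 irradiated (red) and 3 control (blue) libraries, with a symbol per library and a black line at each group mean. Sftpc lies between 8741 and 9588 FPKM in irradiated libraries and between 14677 and 16828 FPKM in controls, while the groups overlap for Sftpa1, Sftpd and Abca3.

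Sftpc, on the minus strand of chromosome 14 (70758381 to 70761521, GRCm39), encodes the precursor of SP-C. Its level was 9588, 8815 and 8741 FPKM in irradiated 1 to 3, against 14677, 16828 and 14986 FPKM in control 1 to 3. The highest irradiated library lay well under the lowest control, and the irradiated libraries were within a narrower range than the controls. The mean was 9048 ± 469 FPKM in irradiated lung and 15497 ± 1163 FPKM in control lung (SD, n = 3 each), a difference of −41.6%. The log2 change was −0.77 ± 0.14 (limma adjusted p = 0.0793), which ranked 164th of all tested genes by p. That error and rank depend on limma's robust variance estimate. Without it the same change had a standard error of 0.26 (limma adjusted p = 0.207).

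Sftpb, on chromosome 6 (72281594 to 72291356), encodes SP-B, without which newborn mice cannot inflate their lungs. Irradiated 1 to 3 had 1411, 1288 and 1437 FPKM and control 1 to 3 had 1850, 1654 and 1822 FPKM. The groups did not overlap, and the gap between them was slightly wider than the range of the controls. The log2 change was −0.36 ± 0.12 (limma adjusted p = 0.202).

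The genes of the collectins lie 35.8 kb apart on chromosome 14 on opposite strands, Sftpa1 at 40853745 to 40858330 and Sftpd at 40894169 to 40907155. Sftpa1, the gene of SP-A, was at 865, 847 and 955 FPKM in irradiated 1 to 3 and at 863, 916 and 932 FPKM in control 1 to 3. Sftpd, the gene of SP-D, was at 486, 418 and 407 FPKM in irradiated 1 to 3 and at 391, 461 and 422 FPKM in control 1 to 3. Both genes thus had groups that overlapped, and for both the highest value of all belonged to an irradiated library. Their log2 changes were −0.02 ± 0.11 and 0.04 ± 0.12 (limma adjusted p = 0.933 and 0.902). Neither has a stable sign: that of Sftpa1 was 0.11 after rescaling to a common sum, and that of Sftpd was −0.04 without irradiated 1.

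Among lamellar body genes, Lamp3 and Abca3 differed in how far the groups stood apart. Lamp3, on chromosome 16 (19472131 to 19525115), encodes DC-LAMP, a membrane glycoprotein of lamellar bodies. It was at 116, 85.4 and 95.0 FPKM in irradiated 1 to 3 and at 140, 147 and 140 FPKM in control 1 to 3, a log2 change of −0.53 ± 0.13 (limma adjusted p = 0.121). Every irradiated library was below the narrow range of the controls. Abca3, on chromosome 17 (24570997 to 24629178), encodes the transporter that loads phospholipid into lamellar bodies. It was at 57.0, 52.5 and 67.7 FPKM in irradiated 1 to 3 and at 72.8, 62.3 and 69.7 FPKM in control 1 to 3, and only irradiated 3 reached into the control range (log2 change −0.21 ± 0.12, limma adjusted p = 0.409).

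Napsa, on chromosome 7 (44221869 to 44236270), encodes napsin A, an aspartic protease that takes part in maturing SP-B. It was at 169, 152 and 178 FPKM in irradiated 1 to 3 and at 198, 204 and 206 FPKM in control 1 to 3 (log2 change −0.29 ± 0.10, limma adjusted p = 0.217). The groups were apart, and the controls lay within a narrow range.

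Lpcat1, on chromosome 13 (73615332 to 73664539), encodes the acyltransferase that makes the dipalmitoyl phosphatidylcholine of surfactant. It was at 73.7, 51.6 and 96.6 FPKM in irradiated 1 to 3 and at 114, 101 and 108 FPKM in control 1 to 3. Its log2 change of −0.58 ± 0.22 (limma adjusted p = 0.236) was the second largest of the 10 and had the largest standard error, and irradiated 3 nearly reached the lowest control. Without irradiated 2 it was −0.35. Slc34a2, on chromosome 5 (53206695 to 53229006), encodes the sodium-phosphate cotransporter of the AT2 cell's apical membrane. It was at 389.8, 331 and 353 FPKM in irradiated 1 to 3 and at 434, 393 and 420.0 FPKM in control 1 to 3, so that irradiated 1 came within a few FPKM of control 2 (log2 change −0.22 ± 0.11, limma adjusted p = 0.356).

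Etv5, on chromosome 16 (22200063 to 22258320), encodes an ETS transcription factor that acts downstream of FGF and RAS signalling and maintains AT2 identity in mice. It was at 31.0, 25.2 and 36.0 FPKM in irradiated 1 to 3 and at 41.6, 40.7 and 40.8 FPKM in control 1 to 3. All irradiated libraries were lower than the controls, which barely differed from each other (log2 change −0.42 ± 0.13, limma adjusted p = 0.188).

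How small the smaller differences were depended on the scaling. With every library brought to the same summed FPKM, the log2 change was −0.23 for Sftpb, −0.16 for Napsa, −0.09 for Slc34a2 and −0.08 for Abca3, while the median of all tested genes moved to 0.08. Sftpc was at −0.64 on that scale. With the 20 most abundant genes left out of the sum, Sftpb was at −0.35, Napsa at −0.27, Slc34a2 at −0.20 and Abca3 at −0.19, close to the values without scaling. Sftpc was then at −0.76 and the median of all tested genes at −0.02.

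**Figure D2:**
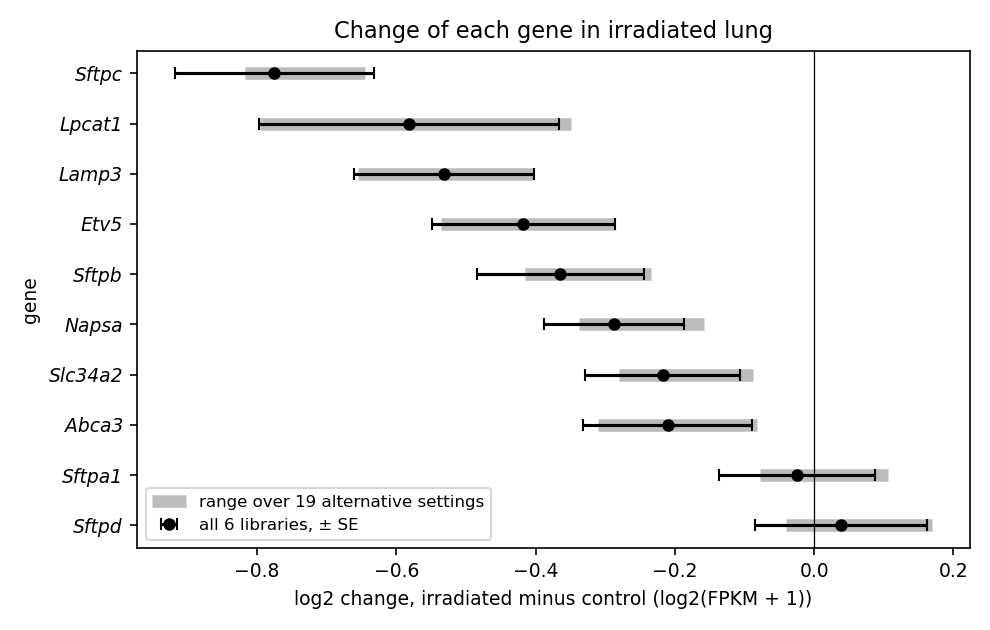
Log2 change of each gene, irradiated minus control, from log2(FPKM + 1), with its limma estimate and standard error (point and bar) and the range over 19 alternative settings (grey). The ranges of 8 genes stay below 0, and those of Sftpa1 and Sftpd cross it.

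In both groups the levels, which are scaled for length and so can be compared between genes, ran in the order Sftpc, Sftpb, Sftpa1, Sftpd, Slc34a2, Napsa, Lamp3, Lpcat1, Abca3 and Etv5. In irradiated lung the ranges of neighbours overlapped between Lamp3 and Lpcat1 and between Lpcat1 and Abca3. In control lung the ranges of Sftpd and Slc34a2 overlapped, and the other neighbours stood apart. By mean level Sftpc was the second most abundant of all named genes in irradiated and in control lung, after Scgb1a1, which encodes the main secretory protein of club cells.

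Together the 10 genes held 4.30%, 4.04% and 3.96% of summed FPKM in irradiated 1 to 3, and 5.63%, 5.93% and 5.96% in control 1 to 3. Sftpc alone held 2.96 ± 0.165% in irradiated lung and 4.62 ± 0.201% in control lung (SD, n = 3 each). Of the difference between the groups in the summed level of the 10 genes (−7040 FPKM), Sftpc made up 91.6%. With Sftpc left out of both sums, the other 9 genes held 1.18 ± 0.0470% in irradiated lung and 1.28 ± 0.0844% in control lung, and those groups overlapped. The share of Sftpc among the 10 genes was 72.7%, 73.1% and 70.7% in irradiated 1 to 3 and 78.1%, 80.9% and 78.3% in control 1 to 3, so the mixture as well as its total stood apart between the groups.

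**Figure D3:**
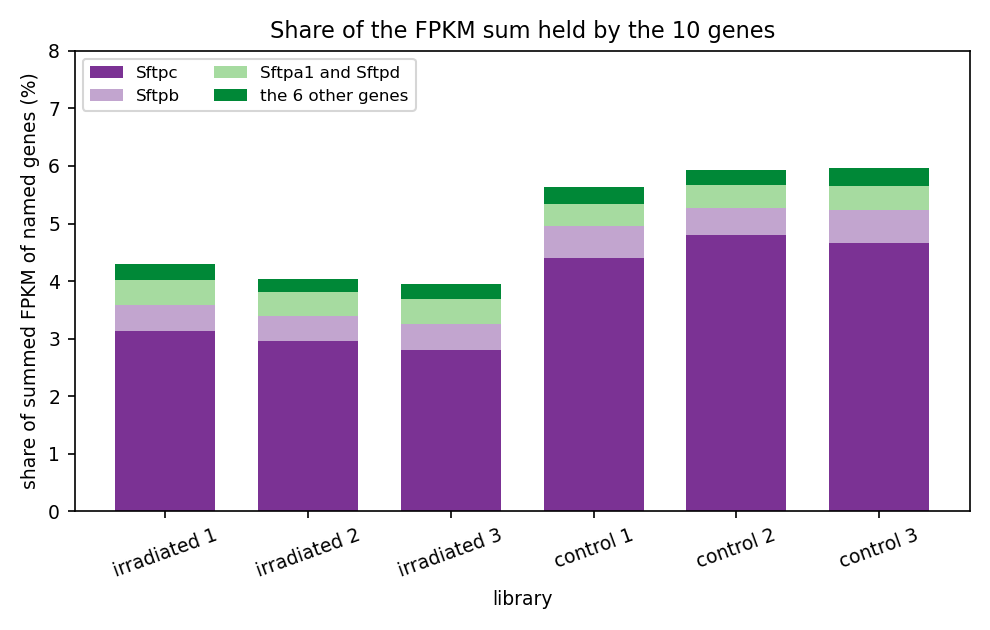
Share of the summed FPKM of named genes held by Sftpc, Sftpb, the collectin genes and the 6 other genes, stacked from 0 for each library. The bars reach 3.96% to 4.30% in irradiated libraries and 5.63% to 5.96% in control libraries, and the Sftpc part is the one that is visibly shorter in the irradiated libraries.

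A ratio of 2 genes within a library does not depend on how the library was scaled. For each FPKM of Sftpd there were 20.8 ± 0.930 FPKM of Sftpc in irradiated lung and 36.5 ± 0.999 in control lung (SD, n = 3 each). For each FPKM of Sftpa1 there were 10.2 ± 0.981 FPKM of Sftpc in irradiated lung and 17.2 ± 1.15 in control lung. Relative to Sftpb, the other hydrophobic protein, the figure was 6.57 ± 0.427 in irradiated lung and 8.78 ± 1.22 in control lung. Sftpc therefore stood lower in irradiated lung relative to the collectins by a wider margin than relative to Sftpb, a contrast that was not tested. For 8 of the 9 genes, all but Lpcat1, the ratio of Sftpc to the gene was lower in every irradiated library than in every control library. Sftpc itself lay lower in every irradiated library, so its ratio to any gene that changed little can show the same. The share of all tested genes with such a ratio was not computed, so this count is not read as particular to these genes. Sftpc had the most negative log2 change of the 10, so the choice of Sftpc as denominator makes all 9 differences from it positive, and their shared sign shows nothing further. Their sizes ran from 0.19 (Lpcat1) to 0.81 (Sftpd) on the log2 scale, with an exact two-sided permutation p of 0.10 for each of the 8 and 0.70 for Lpcat1. A p of 0.10 is the smallest that 3 against 3 libraries can give, and adjusted over the 9 pairs it was 0.113. These tests share Sftpc and are not independent, and none could pass 0.05.

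**Figure D4:**
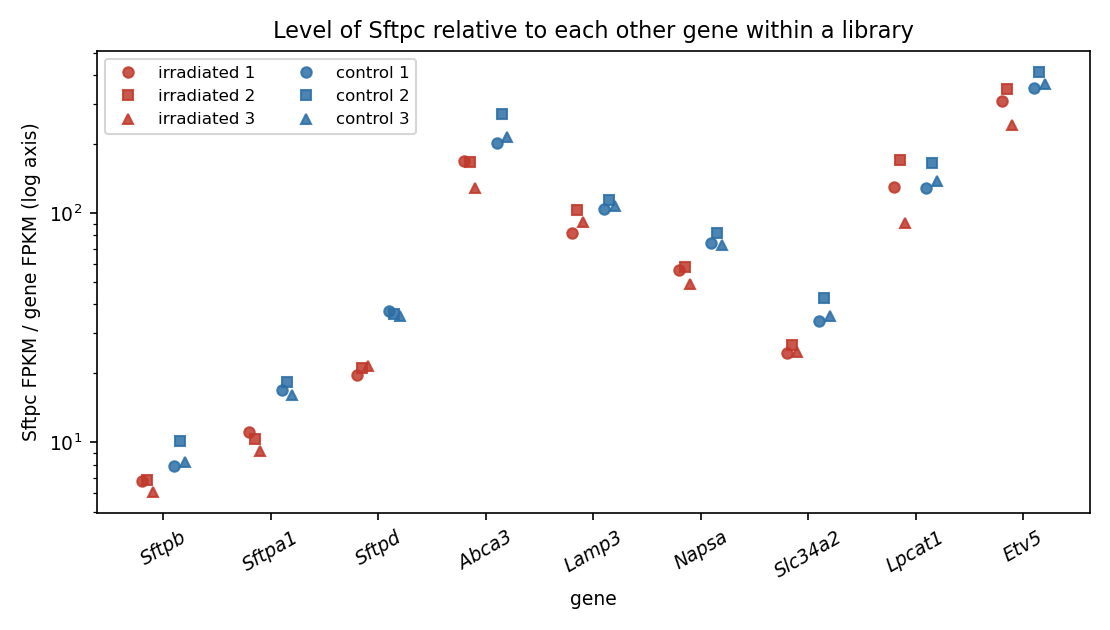
FPKM of Sftpc divided by FPKM of each other gene within the same library, on a log axis, in irradiated (red) and control (blue) libraries. The ratio to Sftpd is 19.7 to 21.5 in irradiated libraries and 35.5 to 37.5 in controls, and only for Lpcat1 do the groups overlap.

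Promoter sequences of 7 of the 10 genes were matched in RefSeq (GRCm38.p6), and those of Sftpc, Sftpd and Napsa were not analysed here. Each spans 250 bases before to 50 bases after a gene's start, read on the gene's strand. They are shown for Sftpb and Sftpa1, which share a motif but differ in how their groups stood, and for Lamp3, whose groups were the farthest apart of the genes matched, by p. Capitals mark exact matches on either strand to the core of NKX2-1, a homeobox factor of lung epithelium (CTCAAG), in Sftpb and Sftpa1, and to the core of FOX factors (TGTTTAC) in Lamp3. The windows are chr6:72304360-72304659 on the plus strand, chr14:41131538-41131837 on the plus strand and chr16:19706316-19706615 on the minus strand.
Sftpb: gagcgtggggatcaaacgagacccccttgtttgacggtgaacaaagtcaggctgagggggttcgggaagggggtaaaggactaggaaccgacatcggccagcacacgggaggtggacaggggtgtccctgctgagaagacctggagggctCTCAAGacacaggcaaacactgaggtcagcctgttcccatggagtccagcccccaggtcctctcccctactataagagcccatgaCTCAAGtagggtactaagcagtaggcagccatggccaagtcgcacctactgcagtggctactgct
Sftpa1: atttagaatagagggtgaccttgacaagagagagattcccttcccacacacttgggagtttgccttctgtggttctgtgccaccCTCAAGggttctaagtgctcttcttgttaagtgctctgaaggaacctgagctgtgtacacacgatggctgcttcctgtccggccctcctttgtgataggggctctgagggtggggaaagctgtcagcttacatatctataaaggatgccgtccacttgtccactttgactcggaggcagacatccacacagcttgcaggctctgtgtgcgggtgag
Lamp3: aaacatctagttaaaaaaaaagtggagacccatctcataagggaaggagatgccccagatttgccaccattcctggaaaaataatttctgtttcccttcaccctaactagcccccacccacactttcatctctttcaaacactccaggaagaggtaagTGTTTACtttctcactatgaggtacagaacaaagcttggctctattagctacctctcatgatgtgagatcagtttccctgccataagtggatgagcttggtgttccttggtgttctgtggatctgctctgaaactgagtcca

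Sftpb holds 2 NKX2-1 cores, which begin 100 and 15 bases before the start, and Sftpa1 holds 1, which begins 166 bases before it. The NKX2-1 core occurs in 15.9% of the 32851 promoters in RefSeq's table. The FOX core occurs in 3.65% of all promoters, in Lamp3 at 92 bases before the start, and in 1 of the 2 promoters of Etv5 on the reverse strand. The ETS core (CCGGAAG) occurs in 8.86% of all promoters and in none of the 8 promoters of the 7 genes. A match describes letters and does not show binding, and the motifs do not overlap one another.

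Genes next to the 10 on the chromosome were read as well. Within 100 kb of Sftpc, 8 other genes passed the filter, and 2 of them had every irradiated library below every control, against 14.6% of all tested genes. One of these is Lgi3, a secreted protein gene expressed in AT2 cells, which lies 4.47 kb beyond the start of Sftpc on the opposite strand. It fell to 34.4, 36.0 and 31.7 FPKM in irradiated 1 to 3, against 55.5, 53.7 and 57.1 FPKM in control 1 to 3 (log2 change −0.69 ± 0.08, limma adjusted p = 0.0475). That call ended when control 1, 2 or 3 was left out (limma adjusted p = 0.203, 0.151 and 0.199), without irradiated 1 (0.0508) and without irradiated 2 (0.0847). It also ended with a common sum (limma adjusted p = 0.0708), and it held in 5 of 19 alternatives, whose adjusted p ran from 0.0403 to 0.282. Bmp1, a procollagen protease gene that begins 0.101 kb beyond the end of Sftpc on the same strand, was at 21.2, 17.0 and 24.5 FPKM in irradiated 1 to 3 and at 17.2, 17.7 and 16.9 FPKM in control 1 to 3. Within 100 kb of Sftpb, 3 of 8 genes that passed lay lower in every irradiated library, against the same 14.6%, and limma called none. Neighbours of the other genes went both ways, and limma called none. Mat1a, 7.36 kb from Sftpa1, lay higher in every irradiated library (log2 change 0.63 ± 0.13, limma adjusted p = 0.0947), against 9.91% of all tested genes. 9230117E06Rik, the 1 neighbour of Etv5 that passed, lay lower in every irradiated library (log2 change −0.69 ± 0.12, limma adjusted p = 0.0793).

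Profiles most like that of Sftpc were sought among 9115 other genes whose mean reached 5 FPKM. The measure was the root mean square difference between log2(FPKM + 1) values centred per gene over the 6 libraries. Clone-based and predicted names were left out, and Cdkn2c ranked 2 among all genes compared. The 5 closest of those kept were Cdkn2c (0.0586), a cell cycle inhibitor, Dpysl2 (0.0731), Dpp4 (0.0823), a surface peptidase, Scn7a (0.0876), a sodium channel, and Yipf2 (0.0910). Cdkn2c, for example, was at 8.65, 8.46 and 8.80 FPKM in irradiated 1 to 3 and at 13.8, 17.4 and 14.4 FPKM in control 1 to 3. These 5 were picked for their likeness to Sftpc in the same libraries. Their lower levels and small p-values largely follow from that choice and show nothing further. Dpysl2, Dpp4 and Scn7a were called by limma (log2 change −0.75 ± 0.09, −0.70 ± 0.08 and −0.78 ± 0.09, adjusted p = 0.0452, 0.0447 and 0.0447), while Cdkn2c and Yipf2 were not (0.0565 each). Leaving out any single control ended those 3 calls (adjusted p up to 0.203), as did leaving out irradiated 2 (0.0847 to 0.0968). Without irradiated 1 the call of Dpysl2 ended too (0.0507). Their adjusted p ran from 0.0326 to 0.282 over the alternatives. Yipf2 overlaps Carm1 and Timm29 on the other strand, and their reads may not be separable, since the use of strand is not stated. The list of other AT2 genes holds none of these 5. Of the other 9 surfactant and lamellar body genes, Lamp3 came closest at 0.158 and Sftpd was farthest at 0.409.

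Other AT2 genes, a list of 20 that holds none of the 10, had a median log2 change of −0.46. Of them 17 were negative and 3 positive, against 55.8% negative of all tested genes. Only Lgi3 was called, against 0.18% of all tested genes, and that call held in 5 of 19 alternatives. An unadjusted p under 0.05 was found for 12 lower and 1 higher, against 10.3% and 7.41% of all tested genes. In 11 every irradiated library lay below every control, against 14.6% of all tested genes. S100g, a calcium-binding protein gene, was at 34.3 ± 2.84 FPKM in irradiated lung and 71.3 ± 15.3 FPKM in control lung (SD, n = 3 each; limma adjusted p = 0.0624). Sfta2, a secreted surfactant-associated protein gene, was at 19.8 ± 3.23 and 42.3 ± 4.07 FPKM in irradiated and control lung (limma adjusted p = 0.0533). Acoxl, a relative of the acyl-CoA oxidases, was at 5.72 ± 1.56 and 12.1 ± 0.775 FPKM in irradiated and control lung (limma adjusted p = 0.0737). Sfta2, S100g and Acoxl thus differed in the direction of Sftpc and by a larger log2 step, −1.07, −1.02 and −0.98. S100g overlaps Ctps2 and Acoxl overlaps Bcl2l11, so their reads may be shared. The list was not uniform, since Chil1, a chitinase-like protein gene named here after its values were seen, was at 415 ± 113 FPKM in irradiated lung and 327 ± 47.1 FPKM in control lung.

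Genes that process and secrete surfactant proteins (17 tested) went both ways, 9 negative and 8 positive, with a median log2 change of −0.08. None was called by limma, and 3 had an unadjusted p under 0.05, against 17.7% of all tested genes. Ctsh, the lysosomal protease that trims the precursors of SP-B and SP-C, was at 168, 151 and 158 FPKM in irradiated 1 to 3 and at 116, 134 and 123 FPKM in control 1 to 3 (log2 change 0.35 ± 0.10, limma adjusted p = 0.162). It stood higher in every irradiated library, opposite to Napsa. P2ry2, a purine receptor that triggers surfactant release, was at 4.48 ± 0.965 FPKM in irradiated lung and 3.21 ± 0.174 FPKM in control lung. P2rx4, another purine receptor, went the other way, at 18.4 ± 2.61 FPKM in irradiated lung and 23.3 ± 2.41 FPKM in control lung. Of the 17 genes 2 (Anxa7 and Cftr) lay lower and 2 (Ctsh and P2ry2) higher in every irradiated library. Of all tested genes 14.6% lay lower and 9.91% higher. Genes that build lamellar bodies (21 tested) had a median log2 change of −0.03. None was called by limma, and 3 had an unadjusted p under 0.05, against the same 17.7%. Rab38, a small GTPase of lysosome-related organelles, was at 2.50 ± 0.589 FPKM in irradiated lung and 4.28 ± 0.578 FPKM in control lung. Lyst, another gene of these organelles, was at 4.98 ± 1.49 FPKM in irradiated lung and 2.77 ± 0.136 FPKM in control lung.

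Genes of surfactant lipid synthesis and uptake (26 tested) also had a median log2 change of −0.03. None was called by limma, and 5 had an unadjusted p under 0.05, against 17.7% of all tested genes. Lpin1 and Lpin2, phosphatidate phosphatases, were higher in every irradiated library. Lpin1 was at 12.3 ± 1.47 FPKM in irradiated lung and 6.98 ± 0.676 FPKM in control lung (limma adjusted p = 0.0652). Mfsd2a, a transporter of lysophosphatidylcholine, was at 4.83 ± 1.93 FPKM in irradiated lung and 1.90 ± 0.788 FPKM in control lung. Acly, which supplies acetyl-CoA for fatty acid synthesis, was at 39.1 ± 3.48 FPKM in irradiated lung and 46.6 ± 1.19 FPKM in control lung. Lpcat1 was thus lower in every irradiated library while the lipins were higher, though the groups of Lpcat1 overlapped with a common sum. Of the 26 genes 4 lay lower and 4 higher in every irradiated library, against 14.6% and 9.91% of all tested genes.

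Transcription factors known to act on surfactant genes (17 tested) had a median log2 change of −0.13, 13 of them negative. None was called by limma, and 7 had an unadjusted p under 0.05, against 17.7% of all tested genes. Nkx2-1 had groups that overlapped, at 39.5 ± 8.43 FPKM in irradiated lung and 54.2 ± 10.1 FPKM in control lung (it was chosen after its values were seen). Cebpa, which promotes AT2 maturation, was at 34.2 ± 3.14 FPKM in irradiated lung and 46.6 ± 7.53 FPKM in control lung. Elf5 was at 4.06 ± 1.83 and Stat3 at 49.6 ± 3.69 FPKM in irradiated lung, against 7.72 ± 1.84 and 38.8 ± 1.78 FPKM in control lung.

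Genes of FGF receptor and ERK signalling and its feedback, the pathway upstream of Etv5, had a median log2 change of 0.25 over 13 tested genes, 9 of them positive. None was called by limma, and 5 had an unadjusted p under 0.05, against 17.7% of all tested genes. Dusp4, a phosphatase of ERK, was at 6.31, 5.77 and 6.07 FPKM in irradiated 1 to 3 and at 4.06, 3.48 and 2.98 FPKM in control 1 to 3 (log2 change 0.65 ± 0.12, limma adjusted p = 0.0793). Etv1, a close relative of Etv5, was at 4.75 ± 0.779 FPKM in irradiated lung and 3.14 ± 0.657 FPKM in control lung. Etv4, the third of that subfamily and chosen after its values were seen, was below the filter at 0.793 ± 0.348 FPKM in irradiated lung and 0.129 ± 0.0336 FPKM in control lung. Etv5 thus lay lower and both relatives higher in every irradiated library, though Etv1 was not called and Etv4 was not tested. Of all tested genes 14.6% lay lower and 9.91% higher in every irradiated library.

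Surfactant is cleared by alveolar macrophages under control of GM-CSF. Of 17 clearance genes tested none was called by limma, and the median log2 change was 0.04. An unadjusted p under 0.05 was found for 7 of them, against 17.7% of all tested genes. Csf2rb, the shared subunit of the GM-CSF receptor, was at 15.2 ± 6.07 FPKM in irradiated lung and 6.92 ± 0.707 FPKM in control lung. Its near-identical copy Csf2rb2 was at 3.86 ± 0.802 and 2.10 ± 0.0907 FPKM in irradiated and control lung, and reads of these copies may be split between them. Marco, a scavenger receptor of alveolar macrophages, was at 4.01, 0.418 and 0.946 FPKM in irradiated 1 to 3 and at 6.63, 8.24 and 4.81 FPKM in control 1 to 3. Of 27 structural relatives of the 10 genes 20 were tested, with a median of 0.16. None was called by limma, and 6 had an unadjusted p under 0.05, against the same 17.7%. Among these relatives Abca1, a lipid exporter related to Abca3, was at 11.7 ± 2.02 FPKM in irradiated lung and 8.16 ± 1.48 FPKM in control lung. Mbl1, a collectin gene next to Sftpa1 and Sftpd, was at 0.708 ± 0.237 and 1.46 ± 0.324 FPKM in irradiated and control lung.

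**Figure D5:**
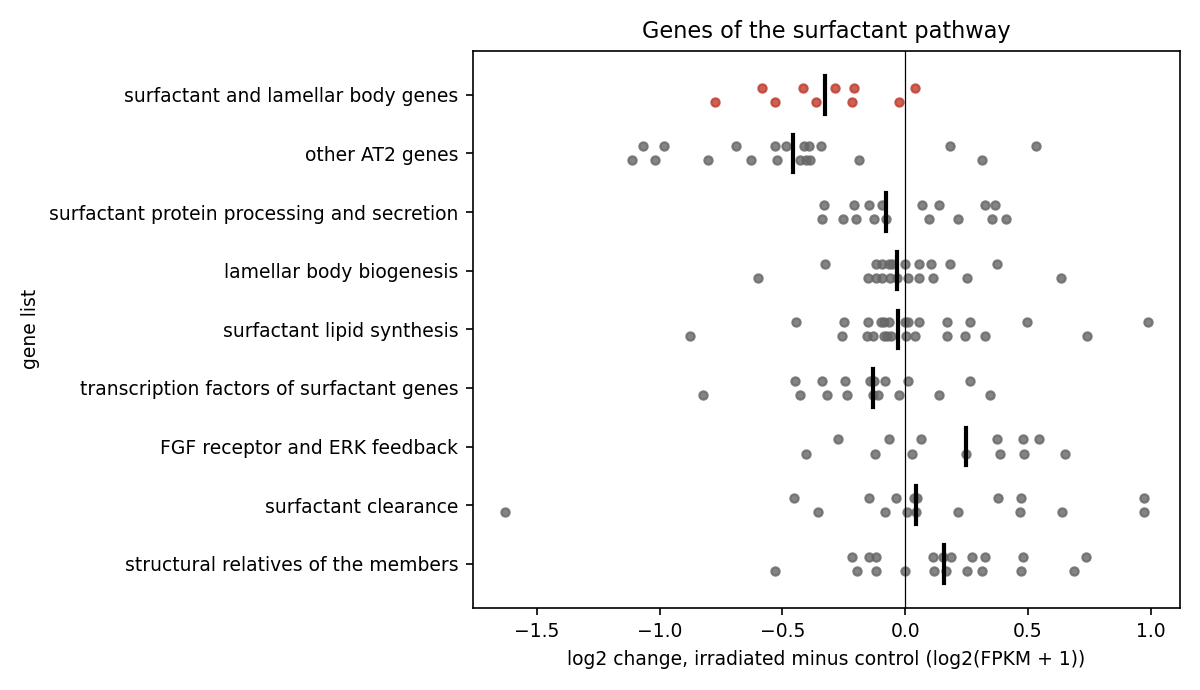
Log2 change, irradiated minus control, of each tested gene of the surfactant and lamellar body genes (red) and of 8 related lists (grey), with a black bar at each list's median. The medians are −0.33 for the surfactant and lamellar body genes, −0.46 for other AT2 genes and 0.25 for the FGF receptor and ERK feedback genes.

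List medians from −0.13 to 0.04 lie about as close to the median of all tested genes (−0.03) as the shift that a common sum brings (to 0.08), so no direction is read from them.

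Levels of other cells' markers also stood apart between the groups for some types. Summed over 10 club markers, FPKM was 19877 to 32222 in irradiated libraries and 35629 to 50452 in control libraries, and Scgb1a1 alone held 6.99 ± 1.62% of summed FPKM in irradiated lung and 11.2 ± 1.85% in control lung. Scgb1a1 made up most of that sum, and the other 9 club markers overlapped between the groups, at 3610, 4101 and 5567 FPKM in irradiated 1 to 3 and 6249, 8022 and 4649 FPKM in control 1 to 3. Of the 10 club markers 7 had a negative and 3 a positive log2 change. Of these markers 2 (Scgb1a1 and Cbr2) lay lower in every irradiated library, against 14.6% of all tested genes. The sum over 14 general epithelial markers overlapped between irradiated lung (435 to 580.1 FPKM) and control lung (511 to 736 FPKM), as did that over 13 transitional markers (471 to 636 and 497 to 758 FPKM). Of the general epithelial markers 12 had a negative and 2 a positive log2 change (median −0.16). Every irradiated library lay lower for 4 of them and higher for 0, against 14.6% and 9.91% of all tested genes. Of 12 transitional markers tested 7 were negative and 5 positive, with 2 lower and 2 higher in every irradiated library. The sum over 12 alveolar type 1 markers was 3033 to 3220 FPKM in irradiated and 3221 to 3680 FPKM in control libraries, so the groups nearly touched. The median log2 change was −0.10. Of these markers 8 were negative and 4 positive (Clic5, Akap5, Emp2 and Igfbp2). Only 2 (Aqp5 and Cav1) lay lower in every irradiated library, against 14.6% of all tested genes. Neutrophil markers (10) summed to 260 to 4850 FPKM in irradiated and 131 to 594 FPKM in control libraries, and red cell markers (8) to 1448 to 6288 and 1352 to 1716 FPKM, both highest in irradiated 2. Irradiated 2 was also the lowest of the 6 libraries for Sftpb, Sftpa1, Abca3, Lamp3, Napsa, Slc34a2, Lpcat1 and Etv5, but not for Sftpc or Sftpd. Without it the log2 change was −0.76 for Sftpc, −0.43 for Lamp3, −0.29 for Etv5 and −0.13 for Abca3. Mesothelial markers (6) summed to 127 to 217 FPKM in irradiated and 240.0 to 428 FPKM in control libraries, and all 6 had a negative log2 change. Capillary endothelial markers (11) summed to 735 to 880.2 FPKM in irradiated and 860.3 to 1066 FPKM in control libraries, so the groups overlapped. Of these markers 7 had a negative and 4 a positive log2 change. Every irradiated library lay lower for 5 of them, against 14.6% of all tested genes. Of the capillary markers limma called Aplnr, the apelin receptor gene, at 2.46 ± 1.03 FPKM in irradiated lung and 15.1 ± 1.44 FPKM in control lung (adjusted p = 0.0298). That call ended without irradiated 2 (0.0819) and without control 1, 2 or 3 (0.203, 0.121 and 0.102), and its adjusted p ran from 0.0242 to 0.203 over the alternatives. Alveolar macrophage markers (11) summed to 359 to 596 FPKM in irradiated and 263 to 376 FPKM in control libraries, so the groups overlapped. They went both ways, 4 with a negative and 7 with a positive log2 change. Of these markers 3 lay lower and 2 higher in every irradiated library, against 14.6% and 9.91% of all tested genes. Ciliated (9) and cardiac muscle (8) markers overlapped between the groups, at 132 to 254 and 20.6 to 263 FPKM in irradiated and 120.0 to 273 and 77.2 to 575 FPKM in control libraries. No marker was at 0 in all libraries, and the part of other cells in the results was not tested.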

How the data were processed

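Whole-lung polyA RNA of 3 irradiated and 3 control mouse libraries was analysed. Per the submitters' processing notes, GRCm39, STAR 2.7.6a, fastp and DESeq2 are named, with no role or order stated. How the gene tables were made, with which annotation and strand setting, is not given in the sources used here. Each table holds, per the file headers, the location, coverage, FPKM and TPM of a gene. The FPKM deposited by the authors were used, summed per gene over named rows, and the deposited coverage, a signal per base, served to estimate depth alone. Beside the named rows each table holds 22644 to 24988 unnamed rows. Each of the 10 genes has an unnamed row on its strand that holds 99.6% to 110% of its FPKM, so these rows were left out. The TPM column was not used. No counts are given, so no counting interval is given.

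limma 3.58.1 (R 4.3.3) was fitted with intensity-dependent prior variance (trend) and robust estimation to log2(FPKM + 1), with group as the only term, after testing on simulated data. The pseudocount of 1 understates changes of low genes. Shares, ratios and lists were computed with Python 3.11.15, pandas 2.3.3 and scipy 1.17.1. Named genes are the 10 genes, up to 5 genes per list by p with every called gene, and the 5 nearest in profile. Clone-based and predicted names were left out of the search for near profiles. The genes and lists were chosen with earlier results of these data known. The lists hold 258 symbols and all were found by symbol. Alternatives were other scalings, filters, a pseudocount of 0.1, other variance estimates, a block for replicate number, and fits without single libraries.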

Additional observations from a re-analysis of the deposited data

How the results depend on the processing

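None of the 10 genes was called by limma under any of 19 alternatives (2 to 7 at an unadjusted p under 0.05). The log2 change of Sftpc ran from −0.82 to −0.64 with adjusted p from 0.0653 to 0.377, that of Lamp3 from −0.65 to −0.40 and that of Sftpb from −0.41 to −0.23. Sftpa1 was positive after rescaling to a common sum (0.11), to a sum without the 10 genes (0.0795) or by median ratio (0.0181), without irradiated 2 (0.00893) and without control 2 and irradiated 2 together (0.0189). Sftpd was negative without irradiated 1 (−0.0406) or without control 1 (−0.0188). Without single libraries Sftpa1 ran from −0.0772 to 0.00893 and Sftpd from −0.0406 to 0.0992. The cause of these changes was not tested. Rescaling to a common sum moved the median of all tested genes to 0.08, so changes under it are read against that shift.

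The number of genes called among all tested was 25 (9 higher, 16 lower). It was 38 (14 higher) with a minimum of 5 FPKM, 13 (7 higher) with a common sum or with a sum without the 10 genes, 11 (4 higher) by median ratio, 9 (all higher) without control 2 and irradiated 2 together, and 0 without a filter (3531 at an unadjusted p under 0.05). Leaving out single libraries gave 0 to 116 (irradiated 1 to 3: 100, 3 and 116, control 1 to 3: 0, 1 and 0, the zeros with 1905 and 1650 at an unadjusted p under 0.05). With the replicate number as a block 0 were called (1623 at an unadjusted p under 0.05), and 0 of the 10 genes. Deviations of same-numbered libraries correlated at −0.54 to −0.17, and in 0 of 3 pairs was the correlation over 0.1. No pairing by number was visible, but deviations from a mean of 3 libraries cannot exclude a pairing.

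The difference in the share of the 10 genes was −1.74 percentage points (−1.85 to −1.67 without single libraries). It was −0.868 with unnamed rows in the sum, −2.42 without the 20 most abundant other genes and −0.104 without Sftpc. Counted after seeing the data, 5 to 6 of the 10 genes had every irradiated library below every control under other scalings, against 6.52% to 14.8% of all tested genes. Without single libraries it was 7 to 8, against 16.2% to 26.1%, since fewer libraries overlap less often. Without counts, depth limits the values of low genes such as Mbl1 or Etv4 by an unknown amount.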
